A study of Mus musculus with 6 samples.

Results

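The genes described here encode carriers that move amino acids, and a few related solutes, across membranes, and were compared between castrated and sham-operated mouse muscle. Members were taken by name, as every gene symbol of the array annotation in the Slc1, Slc3, Slc6, Slc7, Slc36, Slc38 and Slc43 families, each represented by its brightest probe set naming that gene alone. This gave 64 genes of 22180, made up of 7 in Slc1, 2 in Slc3, 20 in Slc6, 16 in Slc7, 5 in Slc36, 11 in Slc38 and 3 in Slc43. The naming rule uses no measured difference, but the gene group was chosen with earlier results of these data known. By name it also took in the opposite-strand genes Slc7a6os, Slc6a19os and Slc36a1os, which are not carriers. The other 61 members are counted as carriers. They include Slc3a1 and Slc3a2, glycoproteins that bind Slc7 carriers and are not carriers themselves. Among those 61, Slc6a2, Slc6a3 and Slc6a4 carry monoamines and Slc43a3 carries purine nucleobases rather than amino acids. Slc6a9 is not analysed here as a member.

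RNA came from the tibialis anterior, a fast muscle of the lower leg, of male C57Bl/6 mice aged 18 weeks. The castrated group (3 arrays, labelled refed) and the sham group (3 arrays, labelled fasted) had surgery at 11 weeks of age. All were fasted overnight. The series design describes mice kept fasted or given food for 30 minutes, and then 4 hours without food for all, while the protocol attached to each sample describes the meal for every mouse. Surgery and feeding label coincide in all 6 samples, so their effects cannot be told apart. All 9 muscle fibre markers measured lay at or above the 99.77th percentile of mean level, and array medians lay between 5.04 and 5.09 on the log2 scale. Percentiles of mean level rank the brightness of probe sets, which depends on the probes as well as on the transcript. The array number limits the precision: the standard error of a member's difference was between 0.0911 and 0.24 on the log2 scale, with a median of 0.116.

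Muscle holds the largest pool of free amino acids in the body and exchanges it with blood through several carrier types. Sodium-coupled carriers of the Slc38 and Slc1 families concentrate glutamine, alanine and other neutral amino acids inside the fibre. Exchangers of the Slc7 family, most of them bound to a glycoprotein of the Slc3 family, trade these for leucine and other essential amino acids, and facilitated carriers of the Slc43 family let large neutral amino acids pass down their gradient. Slc36 carriers, and some Slc38 members, act at the lysosome, where amino acids are sensed upstream of mTORC1, the kinase complex that promotes protein synthesis. Slc6 carriers bring in taurine and creatine, both abundant in muscle.

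No amino acid transporter gene differed between castrated and sham muscle at the threshold used, an adjusted p under 0.05 over all genes (limma with Benjamini-Hochberg adjustment). The members with the largest differences were the system A carrier Slc38a4, lower in castrated muscle, and the cationic carrier Slc7a2 and the exchanger Slc7a8, higher in castrated muscle. Adjusted p-values of the members ran from 0.463 to 0.993. Over all genes 0.0135% passed, 3 of 22180. At an unadjusted limma p under 0.05 there were 6 members of 64, or 9.38%, against 7.13% of all genes. Of these 6, 5 were higher in castrated muscle (Slc7a2, Slc6a19os, Slc7a8, Slc1a5 and Slc7a7), where 3.62% of all genes were higher, and 1 was lower (Slc38a4), where 3.51% were lower. Without sham sample 2 the count was 3 in place of 6. The groups did not overlap for 10 members, or 15.6%, against 12.8% of all genes. They were 6 with every castrated array higher (5.73% of all genes) and 4 with every castrated array lower (7.02%). Both totals lay near the shares over all genes.

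**Figure D1:**
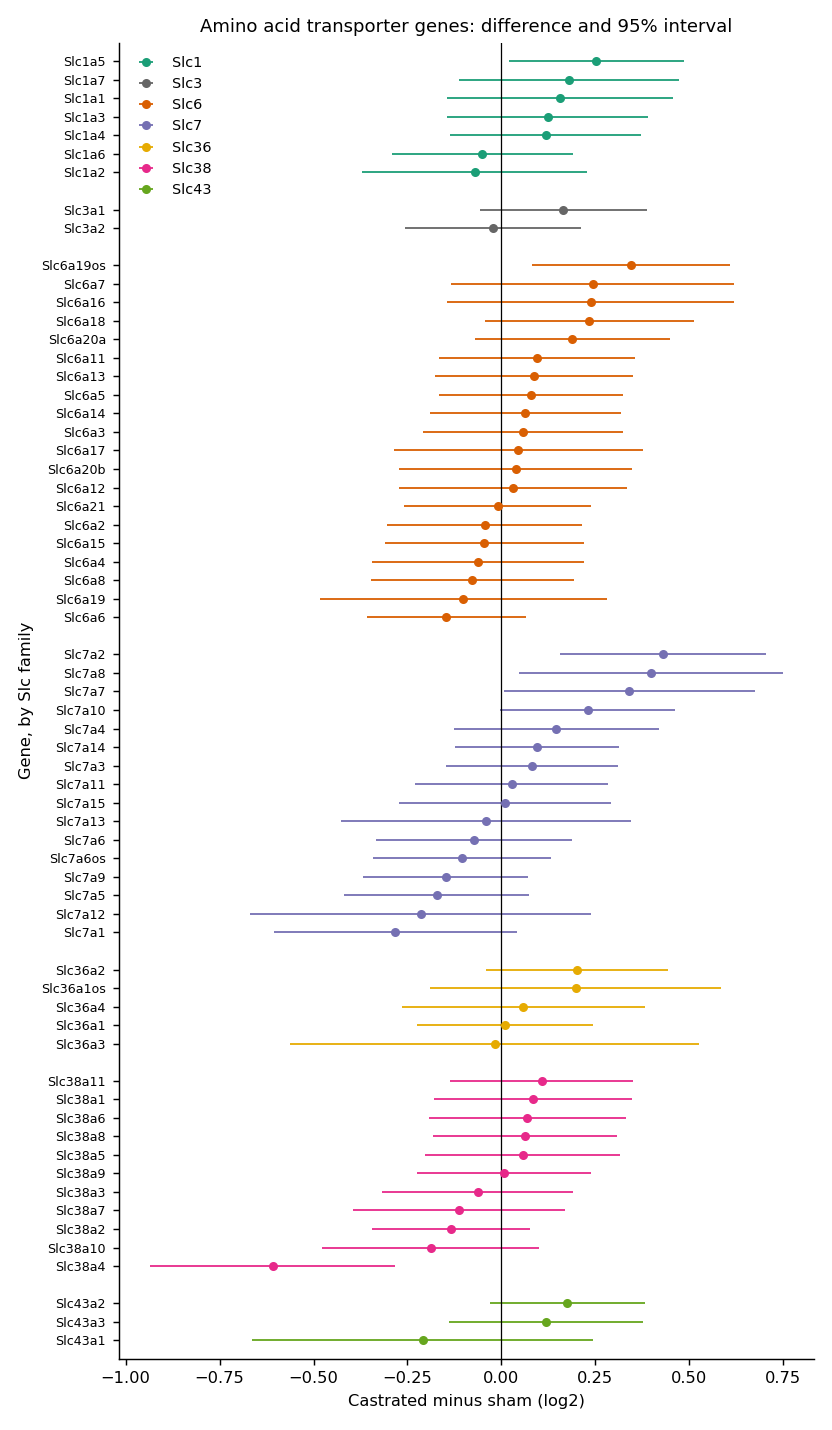
Castrated minus sham on the log2 scale (horizontal axis) for the 64 genes, sorted within each Slc family, with limma's 95% intervals as bars (3 arrays a group). The intervals of Slc38a4 (−0.93 to −0.28), Slc7a2 (0.16 to 0.70), Slc7a8, Slc7a7, Slc1a5 and Slc6a19os do not cross 0, and none of these genes passed after adjustment.

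Slc38a4 encodes SNAT4, which takes up alanine and other small neutral amino acids with sodium and is known mainly from liver, muscle and placenta. It read 9.12, 9.27 and 9.60 in castrated samples 1, 2 and 3, and 10.10, 9.94 and 9.78 in sham samples 1, 2 and 3 (log2 values). Every castrated array lay under every sham array, with castrated sample 3 and sham sample 3 nearest each other. The means were 9.33 ± 0.25 in castrated and 9.94 ± 0.16 in sham muscle (SD, n = 3 each), a difference of −0.61 (standard error 0.144) or 1.52-fold lower, which did not pass over all genes (limma adjusted p = 0.463, unadjusted p = 0.00227). With 1 array left out it lay between −0.74 and −0.50. In whole muscle, fewer cells of a type and less RNA per cell cannot be told apart, here and for every gene below.

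The other Slc38 carriers had smaller differences, all with intervals that included 0. Slc38a2, or SNAT2, the system A carrier known for its induction when amino acids are short, read 10.52, 10.54 and 10.60 in castrated arrays and 10.68, 10.63 and 10.75 in sham arrays. These groups did not overlap, but the gap between the nearest arrays was small, and the difference of −0.13 had an interval of −0.34 to 0.08 (limma adjusted p = 0.802). Slc38a3, or SNAT3, which carries glutamine in and out of cells by system N, read 10.28, 10.29 and 10.35 in castrated muscle against 10.44, 10.49 and 10.17 in sham muscle. Here sham sample 3 lay under all castrated arrays. Slc38a1, the third system A carrier, differed by 0.08 (interval −0.18 to 0.35). The lysosomal members Slc38a7, a glutamine carrier, and Slc38a9, an arginine-gated sensor for mTORC1, differed by −0.11 (interval −0.39 to 0.17) and 0.01 (interval −0.22 to 0.24). The other 5 members of the family, Slc38a5, Slc38a6, Slc38a8, Slc38a10 and Slc38a11, ran from −0.19 to 0.11. Over the family 6 of 11 were higher and 5 lower, with a median of 0.0062.

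Exchangers and cationic carriers of the Slc7 family held 3 of the 6 members with an unadjusted p under 0.05, all higher in castrated muscle. They are 3 of the 16 in the family (18.8%), beside 7.13% of all genes in either direction and 3.62% of all genes for higher, a description that was not tested. Slc7a2, or CAT2, imports arginine, lysine and ornithine. Its values were 8.85, 9.06 and 9.14 in castrated samples 1 to 3 against 8.58, 8.44 and 8.73 in sham samples 1 to 3. The groups did not overlap, with castrated sample 1 closest to sham sample 3. The castrated mean of 9.01 ± 0.15 stood 0.43 above the sham mean of 8.58 ± 0.15 on the log2 scale (SD, n = 3 each, standard error 0.12), or 1.35-fold, and did not pass over all genes (limma adjusted p = 0.578). Leaving out an array moved the difference between 0.36 and 0.51. Slc7a1, or CAT1, the widely expressed carrier of the same amino acids, pointed the other way: 5.58, 5.24 and 5.74 in castrated against 5.68, 5.78 and 5.95 in sham arrays. The groups overlapped, and the difference of −0.28 (interval −0.61 to 0.04) was −0.14 without castrated sample 2. Whether Slc7a1 and Slc7a2 differ from each other in response was not tested. The remaining members of the cationic group, Slc7a3, Slc7a4 and Slc7a14, were dim and differed by 0.08, 0.15 and 0.09.

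Slc3a2, the CD98 heavy chain, carries the exchangers Slc7a5, Slc7a6, Slc7a7, Slc7a8, Slc7a10 and Slc7a11 to the cell surface, and Slc3a1 does so for Slc7a9 in kidney. Slc3a2 read 8.03, 8.03 and 8.21 in castrated arrays and 8.21, 8.09 and 8.04 in sham arrays. The groups covered the same range, and the difference of −0.02 had an interval of −0.26 to 0.21. It was above 0 after quantile (0.023) and cyclic loess normalization (0.017). Slc3a1, at the 47.1st percentile of mean level, differed by 0.17 (interval −0.06 to 0.39).

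Of the 7 light chains named above as partners of Slc3a2 or Slc3a1, 4 were higher and 3 lower in castrated muscle, and none passed. Slc7a8, or LAT2, exchanges neutral amino acids of all sizes. It read 8.48, 8.54 and 9.05 in castrated arrays against 8.29, 8.39 and 8.21 in sham arrays. All castrated arrays were higher, but castrated sample 3 stood well above the other two. The means were 8.69 ± 0.32 in castrated and 8.29 ± 0.09 in sham muscle (SD, n = 3 each). Their difference of 0.40 (standard error 0.155, limma adjusted p = 0.685) was 0.22 without that array. Slc7a5, or LAT1, the high-affinity leucine exchanger, read 5.48, 5.63 and 5.68 in castrated arrays and 5.68, 5.72 and 5.91 in sham arrays. Castrated sample 3 and sham sample 1 met at 5.68, and the difference was −0.17 (interval −0.42 to 0.07). Slc7a6 and Slc7a7 export cationic amino acids in exchange for neutral ones with sodium. Slc7a7, known from kidney, gut and macrophages, read 5.60, 5.26 and 5.49 in castrated muscle and 5.39, 4.90 and 5.05 in sham muscle. These overlap, because sham sample 1 exceeded castrated sample 2, and the difference was 0.34 (standard error 0.147, limma adjusted p = 0.696). Its unadjusted limma p of 0.0464 was 0.0621 after quantile and 0.0591 after cyclic loess normalization. Slc7a6 differed by −0.07 (interval −0.33 to 0.19). Slc7a10, or Asc-1, a carrier of small neutral amino acids known from brain and fat cells, read 5.72, 5.64 and 5.47 in castrated arrays and 5.39, 5.39 and 5.35 in sham arrays. Its groups did not overlap, with a difference of 0.23 (standard error 0.103, limma adjusted p = 0.708). Slc7a9, the kidney cystine carrier, lay at the 16.9th percentile and read 3.78, 3.78 and 3.63 in castrated arrays against 3.83, 3.93 and 3.88 in sham arrays. Its groups did not overlap either, at a difference of −0.15 (interval −0.37 to 0.07). Slc7a11, the cystine-glutamate exchanger, lay at the 12.6th percentile and differed by 0.03. That value turned to −0.0068 after quantile normalization and to −0.015 as the mean of its 2 probe sets. The last members of the family, Slc7a12, Slc7a13 and Slc7a15, lay below the 39th percentile and differed by −0.21, −0.04 and 0.01, and Slc7a6os, the protein-coding gene opposite Slc7a6, differed by −0.10. All of their intervals included 0.

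**Figure D2:**
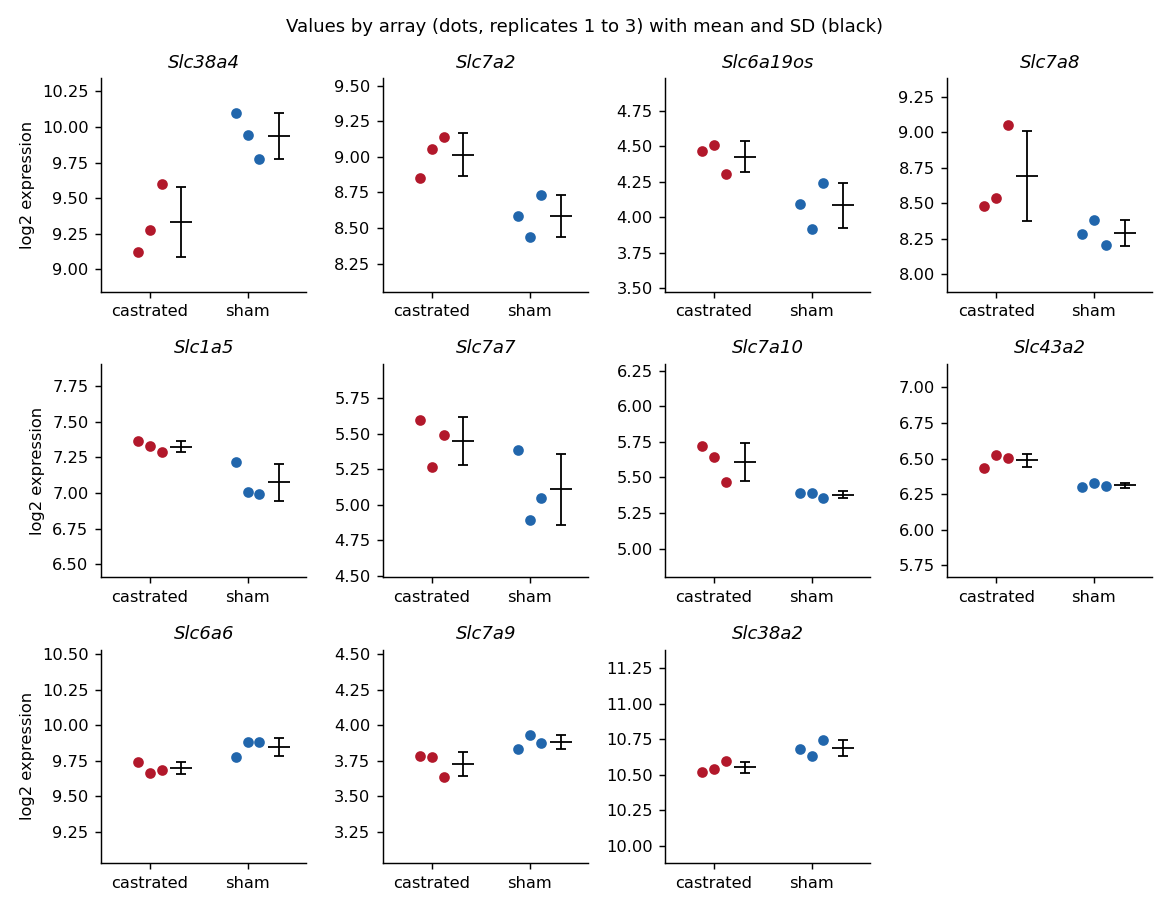
Log2 expression on each array (dots, replicates 1 to 3 from left to right) in castrated and sham muscle for the 11 genes with an unadjusted limma p under 0.05 or with groups that do not overlap, with the mean and SD in black. Each panel spans the same 1.5 log2 units, so that the separation of Slc38a4 can be set against that of Slc38a2, where the means were 10.55 and 10.69.

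Slc1 carriers take up glutamate or, for Slc1a4 and Slc1a5, exchange alanine, serine, cysteine and glutamine. Of the 7, 5 were higher in castrated muscle, with a median of 0.12. Slc1a5, or ASCT2, read 7.37, 7.33 and 7.28 in castrated arrays against 7.22, 7.01 and 6.99 in sham arrays. The groups did not overlap, and sham sample 1 lay just under castrated sample 3. The difference of 0.25 (standard error 0.103) did not pass (limma adjusted p = 0.687, unadjusted p = 0.0367). A second, dimmer probe set of Slc1a5 differed by 0.11 (standard error 0.0956). With the mean of both probe sets the limma p was 0.0882, and with arrays centred on their medians 0.0507, so Slc1a5 then left the 6 members at an unadjusted p under 0.05. Slc1a4, or ASCT1, differed by 0.12, and by 0.018 without castrated sample 2. The glutamate carriers Slc1a1 (0.16), Slc1a3 (0.12) and Slc1a7 (0.18) had intervals that included 0, as had Slc1a2 (−0.07) and Slc1a6 (−0.05). Single arrays moved them: Slc1a1 was 0.056 without sham sample 1, Slc1a3 was 0.017 without castrated sample 2 and Slc1a7 was 0.083 without castrated sample 1.

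Slc43a2, or LAT4, which lets branched-chain amino acids and phenylalanine pass without sodium, had groups that did not overlap and little spread. It read 6.43, 6.53 and 6.50 in castrated muscle and 6.30, 6.33 and 6.31 in sham muscle, a difference of 0.18 (interval −0.03 to 0.38, limma adjusted p = 0.749). Slc43a1, or LAT3, carries the same amino acids and varied most among the castrated samples of the named genes. It read 7.23, 7.13 and 7.96 in castrated arrays against 7.59, 7.75 and 7.60 in sham arrays. Castrated sample 3 lay above every sham array and the other castrated arrays below every one. Its difference was −0.21 (interval −0.66 to 0.24) with all arrays, −0.47 without castrated sample 3, −0.10 without castrated sample 1 and −0.056 without castrated sample 2. Slc43a3 differed by 0.12 (interval −0.14 to 0.38).

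Slc36a1 and Slc36a2 move small amino acids with protons. Slc36a1, found on lysosomes, read 6.85, 6.77 and 6.79 in castrated and 6.92, 6.67 and 6.80 in sham arrays. The castrated values lay inside the sham range, with a difference of 0.01 (interval −0.23 to 0.24) that was −0.010 when arrays were centred on their medians. Slc36a4, a carrier with high affinity for proline and tryptophan, differed by 0.06 and moved between −0.065 without sham sample 2 and 0.21 without sham sample 1. Slc36a2 differed by 0.20 (interval −0.04 to 0.44), with sham sample 3 inside the castrated range. Slc36a3 spread furthest of all members among castrated samples (3.89, 4.97 and 4.56), against 4.51, 4.68 and 4.30 in sham samples, at the 29.1st percentile of mean level. The noncoding Slc36a1os, opposite Slc36a1, differed by 0.20 (interval −0.19 to 0.58).

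The carriers of taurine and creatine were the only Slc6 members above the 50th percentile of mean level. Slc6a6, the taurine carrier, read 9.74, 9.66 and 9.69 in castrated arrays against 9.77, 9.88 and 9.88 in sham arrays. Every castrated array was lower, by a narrow margin between castrated sample 1 and sham sample 1, and the difference was −0.15 (interval −0.36 to 0.07, limma adjusted p = 0.786). Slc6a8, the creatine carrier, read 10.04, 10.31 and 10.16 in castrated arrays and 10.24, 10.10 and 10.41 in sham arrays. These groups overlapped, with a difference of −0.08 (interval −0.35 to 0.19). The proline carrier Slc6a20a, at the 49.7th percentile, differed by 0.19 (interval −0.07 to 0.45). None of the 19 carriers of the family had an unadjusted limma p under 0.05, beside 7.13% of all genes. Apart from Slc6a19os, described below, the 16 other genes of the family ran from −0.10 for Slc6a19 to 0.24 for the proline carrier Slc6a7. They include the 3 carriers of GABA and betaine (Slc6a11, Slc6a12 and Slc6a13), all between 0.031 and 0.096, and the 3 carriers of monoamines (Slc6a2, Slc6a3 and Slc6a4), between −0.063 and 0.058. Slc6a19os, a noncoding gene opposite the kidney and gut carrier Slc6a19, read 4.46, 4.51 and 4.31 in castrated against 4.09, 3.92 and 4.24 in sham arrays. The groups did not overlap, at a difference of 0.34 (standard error 0.116, limma adjusted p = 0.668). Slc6a19 itself differed by −0.10 and its groups overlapped. In mean level Slc6a19os ranked at the 24.5th percentile and Slc6a19 at the 29.7th, and whether such values are above background was not tested.

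Over all 64 members 40 were higher and 24 lower in castrated muscle, or 62.5% higher, with a median of 0.057, beside 48.5% higher and a median of −0.0056 over all genes. The 26 members above the 50th percentile of mean level were 13 higher and 13 lower, with a median of −0.0076, beside 40.8% higher and −0.030 for all genes in that range. The 38 at or below it had 27 higher and 11 lower, or 71.1% higher, with a median of 0.063, beside 56.2% higher and 0.025 for all genes in that range. In both ranges the members' median lay above that of all genes. Groups that did not overlap numbered 8 of the 26 bright members (30.8%, against 14.8% of all bright genes) and 2 of the 38 dim ones (5.26%, against 10.7%). This division was made after the values were seen and was not tested. Per array, with each gene centred on its mean, the members' median was 0.050, −0.019 and 0.019 in castrated samples 1 to 3 and −0.032, −0.0086 and −0.00036 in sham samples 1 to 3. The groups overlap, since castrated sample 2 lay under sham samples 2 and 3.

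**Figure D3:**
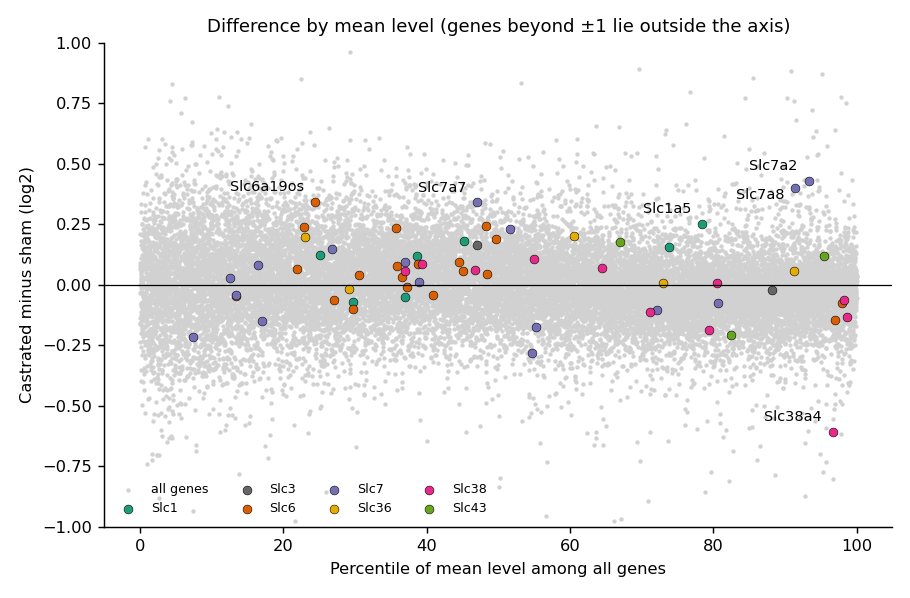
Castrated minus sham on the log2 scale against the percentile of mean level, for all genes (grey) and for the 64 members coloured by Slc family, with names for the 6 at an unadjusted limma p under 0.05. Slc38a4 (−0.61), Slc7a2 (0.43) and Slc7a8 (0.40) lie far to the right, at the 96.6th, 93.3rd and 91.4th percentile, while most Slc6 members lie below the 50th. Genes beyond 1 log2 unit fall outside the vertical axis.

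Promoter windows, each the 250 bases before a RefSeq transcript start (build GRCm38.p6), were available for 47 of the 64 members. They were searched on both strands for 2 elements: AGAACA, the half-site bound by the androgen and glucocorticoid receptors, and TGATGCAA, a core of the composite C/EBP-ATF element through which ATF4 acts when amino acids are short. The half-site occurred in 8 of the 47 members (17%), against 18.2% of all genes with a window. The composite core occurred in 2 of the 47 (4.26%), against 0.918% of all genes. The sequences below are for Slc38a4, the member that differed most, for Slc7a8 and Slc7a7, both with an unadjusted p under 0.05, and for Slc7a11, the textbook target of ATF4. They run 5′ to 3′ on the strand of the gene, with either element in capitals. Where a gene had several windows, the printed window was taken from those that hold an element.
Slc38a4 (chr15:97020360-97020609, minus strand, 1 of 3 start windows): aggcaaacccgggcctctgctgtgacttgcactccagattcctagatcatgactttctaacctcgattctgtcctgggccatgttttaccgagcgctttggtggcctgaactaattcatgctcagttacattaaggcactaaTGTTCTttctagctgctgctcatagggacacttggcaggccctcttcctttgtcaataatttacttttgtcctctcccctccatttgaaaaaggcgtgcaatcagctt
Slc7a8 (chr14:54781887-54782136, minus strand): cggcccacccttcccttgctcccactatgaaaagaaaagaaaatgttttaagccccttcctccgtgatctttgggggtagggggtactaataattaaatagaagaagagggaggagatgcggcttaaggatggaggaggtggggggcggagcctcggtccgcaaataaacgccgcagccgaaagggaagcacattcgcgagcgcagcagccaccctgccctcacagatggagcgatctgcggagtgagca
Slc7a7 (chr14:54417703-54417952, minus strand, 1 of 5 start windows): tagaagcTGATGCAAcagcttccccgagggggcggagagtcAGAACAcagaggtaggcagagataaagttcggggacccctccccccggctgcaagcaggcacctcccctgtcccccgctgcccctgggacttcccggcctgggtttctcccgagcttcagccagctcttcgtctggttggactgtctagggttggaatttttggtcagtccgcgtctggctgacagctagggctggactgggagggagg
Slc7a11 (chr3:50443614-50443863, minus strand): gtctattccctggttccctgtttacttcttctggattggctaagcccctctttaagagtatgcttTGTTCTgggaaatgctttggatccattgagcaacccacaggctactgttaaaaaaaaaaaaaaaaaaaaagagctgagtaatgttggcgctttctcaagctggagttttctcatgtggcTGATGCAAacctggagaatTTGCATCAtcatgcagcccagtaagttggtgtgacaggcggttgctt

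Slc38a4 held 1 half-site, in reverse complement, from 108 to 103 bases before this start, and neither element in its other windows. Among those others, the window at chr15:97055957-97056206 lies before the furthest upstream start. The printed Slc38a4 window lies inside the gene. Slc7a7 held both elements in this window, the half-site alone in 1 overlapping window and neither in its other 3. Slc7a8 held neither in its window. Slc6a19os, also at an unadjusted limma p under 0.05 but not printed, held neither in its window. For Slc7a2 and Slc1a5, which had such a p as well, no window was available. Slc7a11 held 1 half-site, in reverse complement, from 185 to 180 bases before its start. It also held 2 composite cores, from 66 to 59 and from 47 to 40 bases before that start. Its expression differed by 0.03 between castrated and sham muscle. A match is a description of letters and shows no binding.

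Genes around the carriers were counted from lists, none of which held a gene past the threshold over all genes. Named from each are the pair with the smallest p, whose limma adjusted p-values ran from 0.529 to 0.855. Of 31 genes of amino acid sensing and mTORC1, among them Mtor, Rptor and Rheb, 10 were higher and 21 lower, with a median of −0.047. As 29 of the 31 lie above the 50th percentile of mean level, they stand beside the median of −0.030 and the 40.8% higher of all genes in that range. Most genes of the next 3 lists lie there too (11 of 15, 13 of 14 and 8 of 8). The kinase Mtor differed by −0.25 and the folliculin partner Fnip1 by 0.28, and the groups of each did not overlap. Among 15 genes of the response to amino acid shortage 5 were higher and 10 lower (median −0.077), with the mitochondrial folate enzyme Mthfd2 at −0.40 and the glutathione-degrading Chac1 at 0.48. Differences in that list ran from −0.40 to 0.58. Of 14 enzymes of branched-chain, glutamine and alanine metabolism 6 were higher and 8 lower (median −0.031), led by the aminotransferase Bcat2 at −0.21 and the dehydrogenase subunit Bckdhb at 0.32. The 8 creatine and taurine genes had a median of 0.022, with mitochondrial creatine kinase Ckmt2 at −0.31 and the taurine-pathway enzyme Csad at 0.14. Among 10 other carriers and partners of carriers 5 were higher and 5 lower (median −0.021). The lysosomal peptide and histidine carrier Slc15a4 differed by −0.41 and the vesicular glutamate carrier Slc17a6, at the 23.4th percentile of mean level, by −0.35.

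Markers of other cell types were read beside the members known from those cells. Of 6 macrophage markers 5 were lower in castrated muscle, with a median of −0.12, while Slc7a7 was at 0.34 and Slc7a2 at 0.43. Their per-array medians, with each gene centred on its mean, ran from −0.21 to 0.14 in castrated and from −0.072 to 0.45 in sham samples. For 5 adipocyte markers the median was 0.18, with 4 higher, beside 0.23 for Slc7a10, and adiponectin, Adipoq, differed by 0.27. Per array they ran from −0.0041 to 0.15 in castrated and from −0.19 to 0.047 in sham samples. Endothelial markers were 4 higher and 3 lower (median 0.0055), and ran from −0.65 for Cldn5 to 0.34 for Emcn. Fibro-adipogenic progenitor markers were 5 of 5 lower (median −0.13). The 3 Schwann cell markers measured had a median of 0.0014 and the erythroid marker differed by −0.022. Muscle fibre markers were 3 higher and 6 lower, from −0.25 for Mb to 0.14 for Casq1. Their median was −0.046, beside −0.030 for all genes above the 50th percentile of mean level. Tendon markers were 5 of 6 higher, with a median of 0.50, and their per-array medians ran from −0.072 to 0.46 in castrated and from −0.58 to 0.048 in sham samples. The part of these cells in the members' values was not tested.

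**Figure D4:**
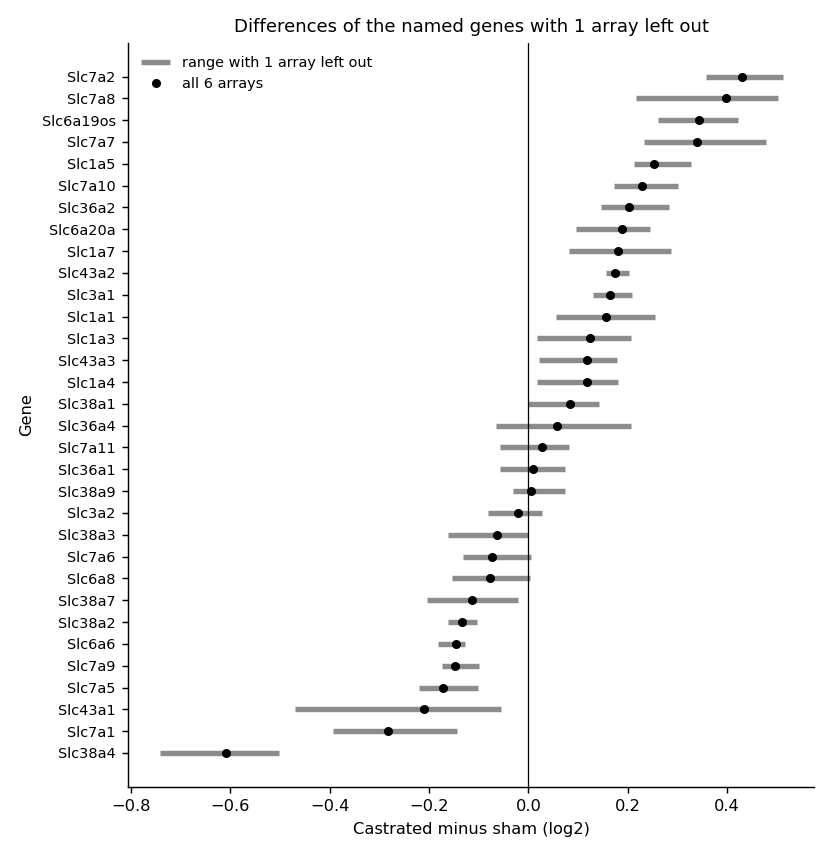
Castrated minus sham on the log2 scale for the 32 named genes with all 6 arrays (dots) and the range when 1 array is left out (grey bars). The bars of Slc7a2 (0.36 to 0.51) and Slc38a4 (−0.74 to −0.50) stay away from 0, those of Slc43a1 and Slc7a8 are wide, and those of Slc3a2, Slc36a1, Slc36a4, Slc38a1, Slc38a9, Slc6a8, Slc7a6 and Slc7a11 cross 0.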

How the data were processed

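Affymetrix whole-transcript arrays measured muscle RNA of 3 castrated and 3 sham mice. The deposited values are log2 expression per probe set, and Partek is named per the submitters' processing notes. How background was corrected and how probes were summarized and normalized is not given in the sources used here, and these steps can compress differences of dim and bright genes. Arrays have no read depth. No label or header names a batch, and arrays correlated at 0.9904 to 0.9924 within groups and at 0.9895 to 0.9916 between them. Of 41345 probe sets, 23521 carry 1 gene symbol, 1814 several and 16010 none. Symbols were updated by Entrez number (23328 matched), which gave 22180 genes, each by its brightest probe set. No filter was applied. limma 3.58.1 under R 4.3.3 fitted castrated minus sham over every gene, with Benjamini-Hochberg adjustment, and the step was tested on simulated data. The labels name a mouse per sample and nothing on separate cohorts, so a p-value reflects only how these samples vary. Members and lists were chosen with earlier results of these data known. Genes were named if past the threshold, at an unadjusted p under 0.05, with groups that do not overlap, among the 3 brightest of a family, or on a list of main carriers, and for other lists by the 2 smallest p. Figures used matplotlib 3.10.9. Alternatives were quantile, median-centred and cyclic loess normalization, filters at the 25th and 50th percentile, the mean of probe sets, a replicate block, a trended robust prior, array weights and leaving out each sample, and, chosen after seeing the data, carriers only.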

Additional observations from a re-analysis of the deposited data

How the results depend on the processing

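No member passed the threshold under any of the 16 alternatives. The count of all genes past it was 3, and 9 and 16 with filters at the 25th and 50th percentile, 10 with a trended robust prior, and between 3 and 4 with a sample left out. The filters at the 25th and 50th percentile left 54 and 26 members, and carriers only left 61, in place of 64. Members at an unadjusted p under 0.05 numbered between 3 (without sham sample 2) and 7 with a sample left out. Otherwise they numbered 5 or 6, with 6 of 54 and 5 of 26 under the filters. In the main fit 4 of the 26 members above the 50th percentile (15.4%) had such a p, beside 6.58% of all genes there. The shares of all genes at such a p under the alternatives are not given here, so these counts cannot be judged against them. Slc38a4 and Slc7a2 stayed under an unadjusted p of 0.05 in every alternative run. Slc1a5, Slc6a19os, Slc7a7 and Slc7a8 each rose above it with at least 1 sample left out. Members whose groups do not overlap numbered 13 to 21 of 64 with a sample left out, since fewer samples separate more easily. Otherwise they numbered 8 to 12, with 8 of 54 and 8 of 26 under the filters. Of all genes above the 50th percentile 14.8% had such groups. With a sample left out the share over all genes is not given here, so 13 to 21 cannot be judged against it. The members' median of 0.057 was −0.0076 with the filter at the 50th percentile, 0.028 after cyclic loess and 0.028 after quantile normalization, and ran from 0.020 without castrated sample 1 to 0.062 without sham sample 2.

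Of 32 named members 24 kept their direction in every alternative run. Slc3a2 was 0.023 after quantile and 0.017 after cyclic loess normalization, and ran from −0.081 to 0.028 with a sample left out. Slc7a11 was −0.0068 after quantile normalization and −0.015 as a mean of probe sets, and ran from −0.057 to 0.082. With arrays centred on their medians Slc36a1 was −0.010 and Slc38a9 −0.013, and with a sample left out they ran from −0.057 to 0.073 and from −0.032 to 0.074. With a sample left out Slc36a4 ran from −0.065 to 0.21, Slc6a8 from −0.15 to 0.0028, Slc7a6 from −0.13 to 0.0050 and Slc38a1 from −0.0017 to 0.14. The causes were not tested. Across the alternatives the adjusted p of Slc38a4 ran from 0.119 to 0.722, of Slc7a2 from 0.198 to 0.779 and of Slc7a8 from 0.4 to 0.864.

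The labels number the samples 1 to 3 in both groups. Deviations of same-numbered samples from their group means correlated over all genes at 0.0759, 0.0325 and 0.0473, each the highest for that castrated sample, which is a hint from the data and not from the design. Differently numbered samples correlated at −0.0451 to 0.00177. All these values are low, whether the samples were paired was not tested, and by their labels they share only a number. With the number as a replicate block 2 genes passed in place of 3, and 6 members stood at an unadjusted p under 0.05, as without it.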

Other observations

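A probe set shared by the glycine carrier Slc6a9 and its neighbour Ccdc24 read 5.98, 6.28 and 6.35 in castrated samples and 6.46, 6.41 and 6.38 in sham samples. Every castrated sample was lower, at a difference of −0.21 (standard error 0.118). It was tested beside all probe sets and is no member, because the signal cannot be assigned to 1 of these genes.

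Of the 4 members with a second probe set, the pair pointed the same way for Slc1a5 (0.25 and 0.11) and Slc36a4 (0.058 and 0.071). It pointed opposite ways for Slc38a10 (−0.19 and 0.13) and Slc7a11 (0.027 and −0.058), where the second probe set was the dimmer one.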
